A study of Rattus norvegicus with 12 samples.

Results

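Scin, Ms4a15, Klkb1, Ly6g6e, Gcnt1, Cyp39a1 and Alx4 are 7 genes, of 15939 in the table, that were chosen by symbol because earlier results of these data had them higher in rats that performed an attention task. RNA came from the medial prefrontal cortex of Wistar rats, and 12 libraries were sequenced in 4 groups of 3. Young rats were 3 months old and aged rats 22 months old. Performing rats of either age learned and were tested on an operant attention task, and nonperforming rats of the same age met the same surroundings without any cognitive task. A library name starts with Y for young or A for aged, then N for nonperforming or P for performing, and ends with a number from 1 to 3 (YN1, AP3). The labels name no sex, no pooling and no animal behind a library, so p-values measure the spread between these libraries, which may be in part technical. Values are normalized read counts, in which 1 read was worth between 0.637 and 1.28.

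Marker genes of other tissue differed between libraries and are given first. Cdhr1, a cadherin of the mitral and tufted cells that carry the output of the olfactory bulb, had its highest values in AP3 (8405), YP2 (6016) and AP1 (5231). AP2 followed with 1866 and YP3 with 855.5, while YP1 and the 6 nonperforming libraries ranged from 296.6 to 493.2. The summed level of 14 olfactory bulb markers ranged from 6571 to 8372 in nonperforming libraries and from 6992 to 29605 in performing ones. Synpr and Meis2, high in every library, made up most of the nonperforming sums (3060 and 3331 of 8226 in YN1). Tbx21 of the same list was at 17.2 or less in nonperforming libraries and at 202.3, 201.6 and 271.7 in YP2, AP1 and AP3. Cortical neuron markers, 8 of 8 present, summed to between 41935 and 64220 in every library. In AP2 the sum of 12 microglia and antigen presentation markers was 90408, against 6801 to 16288 in the other 11 libraries. Much of it came from the antigen presentation genes Cd74 (38921), RT1-Da (12668), RT1-Db1 (7267) and RT1-Ba (6895). Microglial markers differed less. C1qa was 7950 in AP2 against 4230 in YN3, and P2ry12 813.6 against 773.4 in YP3. All but Tmem119 (538.4, against 674.1 in AN3) were highest in AP2. In bulk tissue, more cells of a type and more RNA per cell cannot be told apart.

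The 7 genes have no pathway in common. Scin (scinderin, ENSRNOG00000004498) is a calcium-dependent protein of the gelsolin family that cuts actin filaments and takes part in secretion. Ms4a15 (ENSRNOG00000026957) encodes a protein of the MS4A family, whose members span the membrane several times and include CD20 of B cells and proteins of some olfactory sensory neurons. Klkb1 (ENSRNOG00000014118) encodes plasma prekallikrein, a mainly hepatic protease precursor that releases bradykinin from kininogen. Ly6g6e (ENSRNOG00000027157) belongs to the Ly6 and uPAR family of small, disulfide-rich surface proteins. Gcnt1 (ENSRNOG00000050534) is the glycosyltransferase that starts the core 2 branch of mucin type sugars. Cyp39a1 (ENSRNOG00000010519) is a cytochrome P450 that hydroxylates the cholesterol metabolite made in neurons by Cyp46a1. Alx4 (ENSRNOG00000000008) is a paired type homeodomain transcription factor known from skull and limb development.

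RefSeq promoters on the rat build GRCr8 were matched by symbol for 5 of the 7 genes (Scin, Ms4a15, Klkb1, Gcnt1 and Cyp39a1). The 250 bases before the start site are shown for Ms4a15, the gene with the least varied ratio to Cdhr1, for Scin, the gene farthest from its Cdhr1 line in AP2, and for Cdhr1 itself. Each is printed 5′ to 3′ on the gene's strand, with capitals on any E-box (CANNTG, either strand).
Ms4a15, chr1:217066694-217066943, minus strand: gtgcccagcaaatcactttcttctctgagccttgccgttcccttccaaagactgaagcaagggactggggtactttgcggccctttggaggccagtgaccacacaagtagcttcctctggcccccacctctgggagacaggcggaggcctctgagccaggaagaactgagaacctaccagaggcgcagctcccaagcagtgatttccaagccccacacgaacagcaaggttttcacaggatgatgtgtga
Scin, chr6:62915288-62915537, minus strand: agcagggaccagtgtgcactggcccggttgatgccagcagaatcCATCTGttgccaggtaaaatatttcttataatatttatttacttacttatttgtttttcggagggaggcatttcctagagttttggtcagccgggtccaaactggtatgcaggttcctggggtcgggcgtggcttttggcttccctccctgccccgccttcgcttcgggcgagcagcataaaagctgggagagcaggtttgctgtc
Cdhr1, chr16:12883580-12883829, minus strand: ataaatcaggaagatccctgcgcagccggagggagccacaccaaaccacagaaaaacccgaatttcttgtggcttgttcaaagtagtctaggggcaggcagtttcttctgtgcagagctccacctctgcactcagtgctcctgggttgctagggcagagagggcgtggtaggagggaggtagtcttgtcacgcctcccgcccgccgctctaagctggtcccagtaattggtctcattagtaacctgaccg
The Scin window held 1 E-box, CATCTG at position -206 from the start site, and the windows of Ms4a15 and Cdhr1 held 0. Klkb1 had 1 match and Cyp39a1 had 2, at -190 (CATGTG) and -125 (CAGGTG), while Gcnt1 had 0. An E-box stood in 65.2% of 27457 rat promoter windows of the same length. The homeobox core TAATTA and the T-box motif GGTGTGA, searched on both strands, were in 4.94% and 3.19% of those windows and in 0 of the 5 matched here.

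Scin was nearly silent in nonperforming rats and present in every performing library. Its normalized count was 0.962, 0 and 0 in YN1 to YN3 and 1.15, 0 and 1.98 in AN1 to AN3. In young performing rats it was 3.94, 44.9 and 5.09 in YP1 to YP3, and in aged performing rats 71.9, 265.7 and 149.2 in AP1 to AP3. The groups did not overlap, though YP1 rested on 4 reads against 2 in AN3. The highest value fell in AP2, a library with less Cdhr1 than YP2, AP1 and AP3. Only 4 reads of Scin came from all 6 nonperforming libraries together, against 481 from the 6 performing ones.

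Ms4a15 rose and fell with the bulb marker across libraries. It stood at 0 in YN1, YN2, YN3 and AN2, at 3.46 in AN1 and at 0.988 in AN3. Its level was 2.96, 300.4 and 22.3 in YP1 to YP3, and 322.3, 88.9 and 456.5 in AP1 to AP3. YP2, AP1 and AP3 were highest, AP2 and YP3 were in between, and YP1 lay inside the nonperforming range.

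Klkb1 was a low gene with the same order. No read was found in any of the 6 nonperforming libraries, where 0 allows up to 3 reads each (a level of 2.95 on average). The levels were 0.985, 18.9 and 3.18 in YP1 to YP3 and 23.1, 9.49 and 22.7 in AP1 to AP3, from 71 reads in all. The performing mean was 4.43 times that floor of 3 reads per library, a lower bound for its ratio to the nonperforming level. YP1 rested on 1 read, under the 3 that a count of 0 allows, and YP3 on 5.

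Ly6g6e had a small signal in every nonperforming library, at 1.92, 6.43 and 4.61 in YN1 to YN3 and 6.93, 8.59 and 4.94 in AN1 to AN3. It was 26.6, 121.8 and 10.8 in YP1 to YP3, and 122, 40.3 and 269.7 in AP1 to AP3. All performing libraries lay above all nonperforming ones. YP1, the library with the least Cdhr1, held more Ly6g6e than YP3, on 27 reads against 17.

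Gcnt1 was expressed in every library and differed least. Nonperforming libraries ran from 91.2 to 152.1 (123 ± 22.4, SD, n = 6). Its level was 120.2, 235.4 and 198 in YP1 to YP3 and 292.8, 240.8 and 476.2 in AP1 to AP3. YP1 lay within the nonperforming range and the other 5 performing libraries above it, so the means differed 2.12-fold.

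Cyp39a1 ran from 12.8 to 22.1 in nonperforming libraries (18.2 ± 3.01, SD, n = 6). It was 28.6, 156.1 and 26.7 in YP1 to YP3, and 152.8, 73.5 and 389.3 in AP1 to AP3. The groups did not overlap, yet YP1 and YP3 were close to the highest nonperforming library, YN1. The performing mean was 7.57 times the nonperforming one.

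Alx4 overlapped most between the groups. It was 10.6, 1.07 and 0 in YN1 to YN3, and 1.15, 1.91 and 0 in AN1 to AN3. In performing rats it was 1.97, 63.9 and 1.27 in YP1 to YP3 and 37.2, 13 and 172.9 in AP1 to AP3. YN1, on 11 reads, was above both YP1 and YP3. Meningeal and fibroblast markers (7 of 8 present) summed to 3654 in YN1, the highest nonperforming library. They summed to 6437, 4413 and 7122 in YP2, AP1 and AP3, against 648.4 to 2565 in the other 8. AP2, with Alx4 at 13, had a sum of 1552. YP3 and YN3 had higher sums, 2565 and 2458, with Alx4 at 1.27 and 0. The part of these markers in the Alx4 values was not tested.

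**Figure D1:**
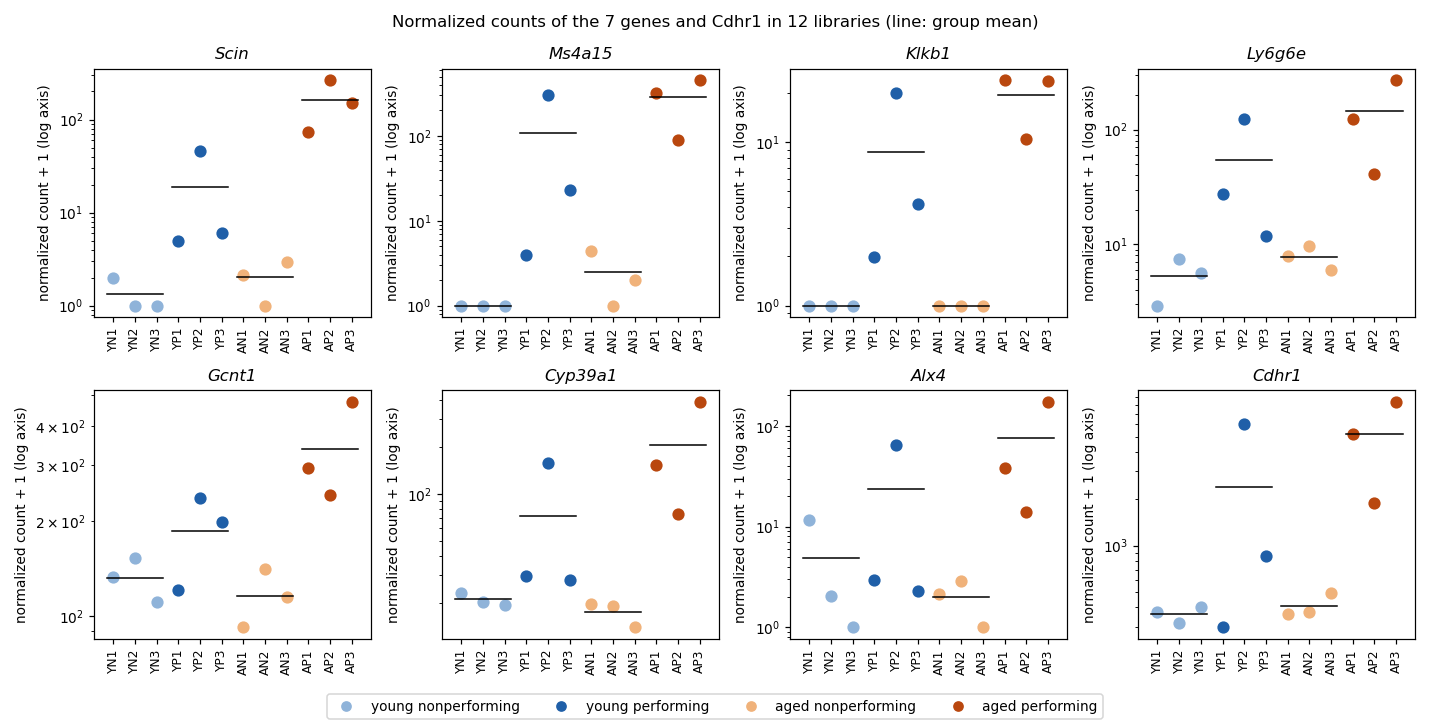
Normalized count plus 1 (log axis) of the 7 genes and Cdhr1 in each of 12 libraries, coloured by group, with a line at each group mean (n = 3). YP2, AP1 and AP3 are the highest libraries for Cdhr1 and for Ms4a15, while AP2 is the highest for Scin.

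The difference between performing and nonperforming rats is what chose these genes, so it is described without a test. Every performing library was above every nonperforming one for 4 of the 7 (Scin, Klkb1, Ly6g6e and Cyp39a1), where 33 of 13496 genes tested, 0.245%, had that pattern. For Klkb1 this rests on 1 read in YP1 against 0, which is under its floor of 3 reads. For Scin it rests on 4 reads in YP1 against 2 in AN3. On the scale of log2(value + 1), averaged over ages, the difference was 5.88 for Ms4a15, 4.71 for Scin, 3.32 for Klkb1, 3.32 for Ly6g6e, 3.01 for Alx4, 2.26 for Cyp39a1 and 0.97 for Gcnt1. For genes near 0 in one group these values depend on the 1 added before the logarithm. Cdhr1 differed by 2.54 on the same scale, and the median of all genes was -0.00.

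With log2 Cdhr1 held in the fit, the remaining difference between task groups was 0.08 for Alx4, 0.37 for Gcnt1 and 0.57 for Cyp39a1. It was 1.48 for Klkb1, 1.59 for Ly6g6e, 2.49 for Ms4a15 and 3.36 for Scin. Without YP2, AP1 and AP3, the libraries richest in Cdhr1, the differences were 4.65 for Scin, 4.35 for Ms4a15, 2.46 for Klkb1, 2.15 for Ly6g6e, 1.39 for Alx4, 1.28 for Cyp39a1 and 0.66 for Gcnt1. AP2 is then the lone aged performing library, assumed to vary like the other groups. The nearly unchanged average of Scin joined a young difference that went from 3.15 to 2.13 and an aged one that went from 6.27 to 7.16, with AP2 alone.

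Whether each gene followed Cdhr1 was tested inside the groups. The genes were chosen with earlier results of these libraries known, including the high Scin value of AP2. Their slopes are therefore not independent of that choice. A limma fit with 4 group means and log2 Cdhr1 gave the log2 change of each gene per doubling of Cdhr1. Ms4a15 rose by 1.34 (SE 0.19) per doubling and passed (limma, adjusted p = 0.041 over all genes tested). Its level reached 10 only in performing libraries, so the slope rests on them. The limma adjusted p was 0.040 with no filter on low values and 0.012 in the performing libraries alone. Ms4a15 was 1 of 7 passing, and 27 of 13495 genes, 0.2%, passed in that direction. The bulb interneuron gene Th, which makes dopamine, had a slope of 0.96 (SE 0.11, adjusted p = 0.023 with limma).

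The other 6 genes did not pass in this limma fit. In that fit Cyp39a1 had a slope of 0.66 (SE 0.13, limma adjusted p = 0.10) and Klkb1 one of 0.72 (SE 0.15, limma adjusted p = 0.11). The slope of Alx4 was 1.15 (95% confidence interval 0.40 to 1.90), that of Ly6g6e 0.68 (0.20 to 1.16) and that of Gcnt1 0.24 (0.05 to 0.43), with limma adjusted p between 0.36 and 0.55. Scin had a slope of 0.53 with an interval of -0.03 to 1.09 (limma adjusted p = 0.85). At an unadjusted p under 0.05, 6 of 7 slopes were positive, all but that of Scin, where 4.68% of all genes were. Leaving out 1 library moved the number of genes passing from 27 to between 0 (without YP2, AP2 or AP3) and 97 (without YN3). The count over members is a description, since Scin, Ms4a15, Klkb1, Ly6g6e and Alx4 reached 10 in 3 libraries, the minimum for testing, only through performing libraries (Alx4 was at 10 or more in 1 nonperforming library).

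The Ms4a15 call was narrow although its slope was steady. Leaving out 1 library at a time gave slopes from 1.19 to 1.38 and ended the call in 8 of 12 fits, with adjusted p up to 0.60 without YP2. These 8 were the fits without YN2, AN3 or any of the 6 performing libraries. With Cdhr1 taken without logarithm, the 1 member passing was Cyp39a1 (limma adjusted p = 0.018), and Ms4a15 lost its call (adjusted p = 0.13). Cyp39a1 also passed in limma with Th in place of Cdhr1 (adjusted p = 0.022) and with library quality weights (adjusted p = 0.021). Klkb1 passed in limma with no filter (adjusted p = 0.043). Over all genes those fits passed 39, 42, 207 and 26, in that order. DESeq2 passed 3 members (Ms4a15, adjusted p = 2.97e-17, Cyp39a1, adjusted p = 0.00035, and Alx4, adjusted p = 0.030), and 187 genes over all genes. In edgeR Ms4a15 alone passed (adjusted p = 0.026), with 31 genes over all genes. The Scin slope was 0.81 without AP2 and -0.20 without YP2, neither passing in limma (adjusted p = 0.46 and 0.98).

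**Figure D2:**
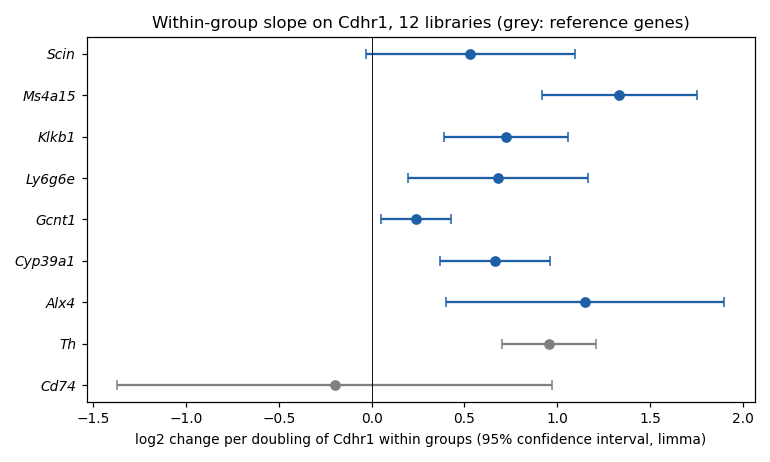
Change in log2(value + 1) per doubling of Cdhr1 within groups for the 7 genes (blue) and for Th and Cd74 (grey), with unadjusted 95% confidence intervals from limma over 12 libraries. Ms4a15 has the steepest slope at 1.34, and the interval of Scin runs from -0.03 to 1.09.

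The amount of each gene per unit of Cdhr1 shows where a gene followed the marker and where it left it. In each performing library with more Cdhr1 than any nonperforming one (YP2, YP3, AP1, AP2 and AP3), the excess of a gene over its nonperforming mean was divided by the same excess of Cdhr1, per 1000. A gene carried in fixed proportion to Cdhr1 has one such ratio throughout. Intervals below are 95% exact Poisson intervals of the reads and cover counting error of the named gene only.

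Ms4a15 had the least varied ratio of the 7 genes, at 53.2 in YP2, 46 in YP3, 66.4 in AP1, 59.7 in AP2 and 56.8 in AP3. The highest was 1.44 times the lowest, and the AP2 interval of 46.8 to 74.9 held the ratios of YP2, AP1 and AP3. With Cdhr1 as the reference, its AP2 ratio was 1.07 times the mean of the other 4, and with Th as the reference 1.67 times. Klkb1 ran from 2.83 in AP3 to 6.79 in YP3 with wide intervals, such as 2.77 to 12.6 in AP2. Ly6g6e ran from 11.2 in YP3 to 33 in AP3 and was 23.5 in AP2. Cyp39a1 ran from 18.2 in YP3 to 46.3 in AP3 and was 37.4 in AP2.

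Scin had a ratio of 7.86 in YP2, 9.41 in YP3, 14.7 in AP1 and 18.5 in AP3, but 179 in AP2 (156 to 204, from 224 reads). The AP2 ratio was 9.68 times the next highest, and the interval of that next library, AP3, ended at 21.7. The straight line on log2 Cdhr1 through the other 11 libraries gave a Scin level of 14.4 in AP2, where 265.7 was measured, a departure of 4.11 on the log2 scale. With a line on values without logarithm the departure was 3.55. A departure of at least 1 in AP2 from the log2 line was seen in 350 of 13495 genes, 2.59%, and from the line without logarithm in 2.42%.

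Among the other members, Ms4a15 was 1.27 above the log2 line in AP2 but 0.03 above the line without logarithm. With Th in place of Cdhr1 the Ms4a15 departure in AP2 was 2.39, and with the bulb marker mean 2.73, against 4.92 and 5.15 for Scin. Klkb1 was 0.75 above the log2 line, and the departures of Ly6g6e, Gcnt1, Cyp39a1 and Alx4 in AP2 lay between -0.11 and 0.17. The Scin departure in AP2 was known when the genes were proposed and is no independent finding. AP2 was also the library with Cd74, the chaperone of MHC class II molecules, at 38921 (2915 or less elsewhere). Cd4 stood there at 1753 against 478.4 or less, while Cd3e and Ms4a1 of lymphocytes were at 5.93 and 0. Whether these immune markers bear on Scin was not tested.

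Gcnt1 and Alx4 had uneven ratios. Gcnt1 was 160 per 1000 Cdhr1 in YP3 and 79.5 in AP2, against 19.9 in YP2, 35 in AP1 and 44 in AP3. Its base level of 123 in nonperforming rats, with an SD of 22.4, makes the YP3 ratio imprecise. Alx4 was 21.3 in AP3, 10.9 in YP2, 7.18 in AP1, 7.16 in AP2 and -2.52 in YP3, where it lay below the nonperforming mean.

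**Figure D3:**
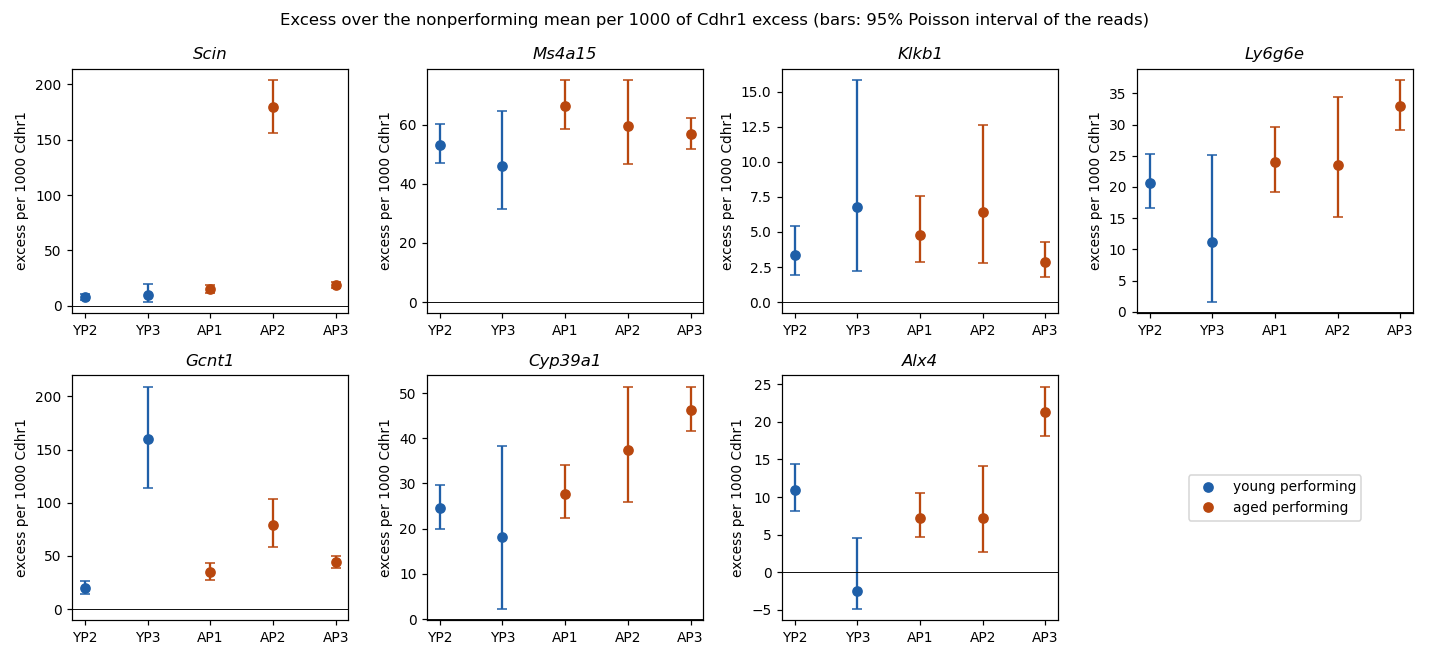
Excess of each gene over its mean in 6 nonperforming libraries, per 1000 of Cdhr1 excess, in the 5 performing libraries with raised Cdhr1 (bars are 95% Poisson intervals of the reads). Ms4a15 lies between 46 and 66.4 in all 5, and Scin is at 179 in AP2 and at 18.5 or less in the other 4.

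YP1 showed a second departure, since it had the lowest Cdhr1 of all 12 libraries (296.6). Ly6g6e, at 26.6, was 2.62 above the level of 3.51 that the log2 line gave for YP1. Scin was 1.99 above its line on 4 reads, Ms4a15 1.90 above on 3 reads and Klkb1 1.25 above on 1 read. For these genes the log2 line gave 0.24, 0.06 and -0.16 in YP1, each under the value of 1 read there (0.985). Their departures from it therefore rest on those few reads. Departures of at least 1 in YP1 were seen in 0.889% of genes, or 0.422% with the line without logarithm, from which Scin departed by -2.19. That line gave 0 for Ly6g6e, Ms4a15 and Alx4 in YP1, so their departures from it (4.79, 1.98 and 1.57) are only log2 of their own value plus 1. Cyp39a1 was 0.995 above its log2 line in YP1, on 29 reads, and 1.59 above the line without logarithm. YP1 and YN1 carry another title prefix than the other 10 libraries, and Ly6g6e was at 1.92 in YN1, the lowest of all.

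**Figure D4:**
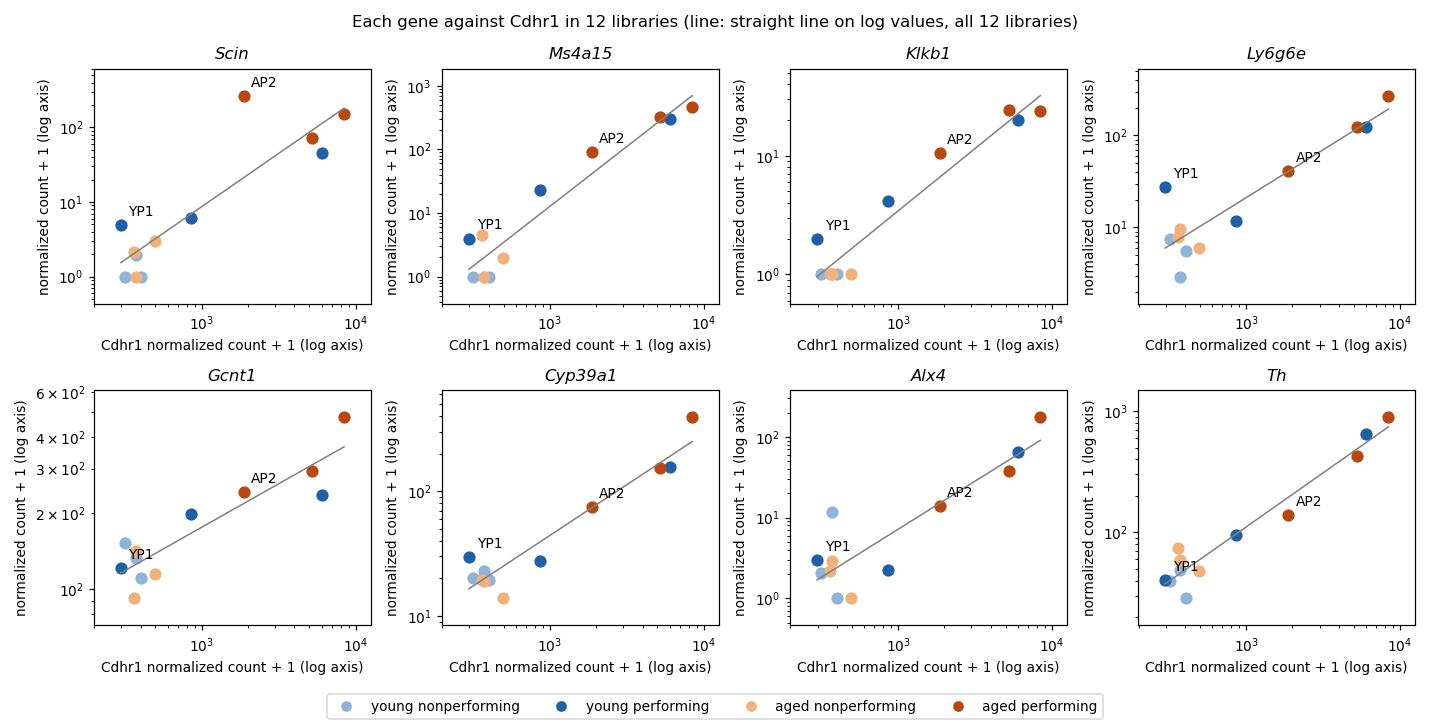
Normalized count plus 1 of the 7 genes and Th against that of Cdhr1 (both log axes) in 12 libraries, with a straight line on log values. AP2 lies far above the Scin line at 265.7, and YP1 lies above the Ly6g6e line at 26.6.

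Genes with the most similar pattern were picked by Pearson correlation of log2 values over the 12 libraries, among 11756 genes with a mean of at least 50. These correlations describe libraries that share a few high values, mainly YP2, AP1 and AP3. Klkb1 was most like Ms4a15 (r = 0.985), Cdhr1 (r = 0.965) and Frmd7 (r = 0.959). Ms4a15 was most like Frmd7 (r = 0.959), Cdhr1 (r = 0.958) and Trh (r = 0.955), the precursor of thyrotropin releasing hormone.

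Ly6g6e was most like S100a5 (r = 0.976), a calcium-binding protein abundant in olfactory sensory neurons, then Cyp39a1 (r = 0.951) and Kcnk15 (r = 0.946). S100a5 stood at 28.6 in YP1, against 5.73 or less in the 6 nonperforming libraries, so it shared the YP1 value of Ly6g6e that Cdhr1 did not show. Its levels in YP2, AP1 and AP3 were 395, 392.9 and 1319. Cyp39a1 was most like Ppm1j (r = 0.963), Fmo1 (r = 0.961) and Hcn4 (r = 0.961), with Cdhr1 next (r = 0.956).

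Alx4 was most like Vipr2 (r = 0.948), the sulfate transporter gene Slc13a4 (r = 0.948) and Cyp39a1 (r = 0.948), and Cdhr1 ranked 38th for it. Slc13a4 was 334.9 in YN1, the highest of the 6 nonperforming libraries, as Alx4 was. Gcnt1 was most like Tax1bp3 (r = 0.955), the Wnt antagonist gene Frzb (r = 0.931) and Shisa3 (r = 0.925), with Cdhr1 11th. Scin was most like Mier1 (r = 0.951), Ms4a15 (r = 0.933) and Trim5 (r = 0.932), with Cdhr1 21st (r = 0.883). Mier1 and Trim5 were highest in AP2, at 1723 and 538.4, as Scin was, though Mier1 varied little, from 1359 in YN3.

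Age was not used to choose the genes, and the comparison of 22 with 3 months was tested. Scin, Ms4a15, Klkb1, Ly6g6e and Alx4 reached the minimum for testing only through performing libraries. Counts over members in the age comparisons are therefore a description. Averaged over task groups, 0 of 7 genes passed in limma (2 had an unadjusted p under 0.05, where 7.5% of all genes did), and 0 of 13496 genes, 0.0%, passed. Scin was higher in aged rats by 2.13 (95% confidence interval 0.83 to 3.42, limma adjusted p = 0.54) and Ms4a15 by 2.01 (0.07 to 3.95, limma adjusted p = 0.54). The other 5 had values between 0.33 and 1.17, and Cdhr1 itself had 1.04 (limma adjusted p = 0.54).

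In performing rats the aged minus young values were 3.68 for Scin, 2.97 for Ms4a15, 2.58 for Alx4, 1.73 for Klkb1, 1.71 for Cyp39a1, 1.70 for Ly6g6e and 0.86 for Gcnt1. None of the 7 passed in limma (adjusted p = 0.89 for each, 5 with an unadjusted p under 0.05, where 3.45% of all genes had one), and 0.0% of all genes did. All 7 were chosen as high in performing rats, so the 5 are no independent finding about age. Cdhr1 was higher by 1.91 in the same comparison. With log2 Cdhr1 as a covariate the Scin value was 2.66, and those of the other 6 lay between 0.34 and 0.43 (limma adjusted p = 0.9998 for each).

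In nonperforming rats the values lay between -0.65 (Alx4) and 1.05 (Ms4a15), with 0 of 7 passing in limma and 0 at an unadjusted p under 0.05 (3.17% of all genes), and 0.0% of all genes passed. Klkb1 had 0 reads in all 6 nonperforming libraries, and Scin and Ms4a15 had 4 each, so this comparison could show no difference for Klkb1 and little for the other two. The interaction, which asks whether the task difference changed with age, had values from 1.06 (Gcnt1) to 3.22 (Alx4). Again 0 of 7 passed (limma adjusted p = 0.9998 for each, 2 with an unadjusted p under 0.05, where 1.03% of all genes had one), as did 0.0% of all genes. With 0 nonperforming reads, the Klkb1 interaction of 1.73 repeats its age value in performing rats. In edgeR and DESeq2 also, 0 members passed in any of these 4 age tests.

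The relatives of each gene were taken from lists of its family or pathway. Of 77 relatives tested, 0 passed on Cdhr1 in limma, while 8 had a positive slope at an unadjusted p under 0.05, against 4.68% of all genes. In edgeR 1 relative passed and in DESeq2 2 did, where 31 and 187 passed over all genes. The median slope of the 77 relatives in limma was 0.02, against -0.00 over all genes. None of the 77 had every performing library above every nonperforming one, where 0.245% of all genes did. In the 4 age tests 0 of 77 passed in limma, edgeR or DESeq2, with 10, 1, 3 and 2 at an unadjusted p under 0.05 in limma for age on average, in nonperforming rats, in performing rats and for the interaction. Over all genes those shares were 7.5%, 3.17%, 3.45% and 1.03%.

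The gelsolin family and other actin cutting genes (10 of 11 in the table, 8 tested beside Scin) had a median slope of 0.01. Gsn, gelsolin itself, averaged 2536 ± 1081 in nonperforming and 2633 ± 455 in performing libraries (SD, n = 6), and cofilin (Cfl1) 27545 ± 6993 and 24478 ± 3741. Svil, supervillin, was named after its values were seen. Its level was 1062 in YP2, 1005 in AP1, 1585 in AP3 and 242.7 to 506.2 in the other 9, with a slope of 0.47 (limma adjusted p = 0.12, DESeq2 adjusted p = 0.0013).

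Of the MS4A family, 13 of 23 genes were in the table and 3 were tested beside Ms4a15, with a median slope of -0.04. Tmem176b, a related membrane protein, averaged 2524 ± 1070 in nonperforming and 2931 ± 1225 in performing libraries (SD, n = 6) and was highest in AP2 (5145). Tmem176a averaged 1321 ± 526 and 1458 ± 676.

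For the kallikrein and kinin system, 14 of 23 genes were in the table and 11 were tested beside Klkb1, with a median slope of 0.06. Plat, tissue plasminogen activator, averaged 1461 ± 284 in nonperforming and 1463 ± 507 in performing libraries (SD, n = 6), and the carboxypeptidase gene Cpm 547 ± 183 and 592 ± 47.6. The Ly6 and uPAR family had 22 of 28 in the table and 11 tested beside Ly6g6e, with a median slope of -0.08. Lynx1, a modulator of nicotinic receptors, averaged 12128 ± 1451 and 10794 ± 1565 in these groups, and Ly6h 5524 ± 2363 and 3843 ± 1065.

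Mucin type sugar synthesis had 32 of 35 genes in the table and 24 tested beside Gcnt1, with a median slope of -0.02. The sialyltransferase gene St3gal2 averaged 3331 ± 183 in nonperforming and 3188 ± 309 in performing libraries (SD, n = 6), and Galnt16 3520 ± 489 and 2619 ± 474. Oxysterol and bile acid synthesis had all 17 genes in the table and 13 tested beside Cyp39a1, with a median slope of 0.05. Cyp46a1, the neuronal cholesterol hydroxylase whose product Cyp39a1 acts on, averaged 6670 ± 1048 and 5832 ± 1083, and the sterol carrier Scp2 8455 ± 2804 and 8655 ± 746.

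Among paired type homeobox genes, 17 of 25 were in the table and 7 were tested beside Alx4, with a median slope of 0.10. Prrx1 averaged 79.7 ± 22.9 in nonperforming and 109 ± 28.3 in performing libraries (SD, n = 6). Prrx2, named after its values were seen, was highest in YP2 (35.5), AP3 (29.6) and AP1 (20.6) and lay between 2.96 and 12.3 in the other 9. It had a slope of 0.80 (SE 0.14, limma adjusted p = 0.064), and DESeq2 passed it with 0.93 (adjusted p = 0.0014).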

How the data were processed

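RNA from medial prefrontal cortex was sequenced from stranded mRNA libraries made from 1000 ng of RNA, per the labels' protocols. The authors deposited 1 table of normalized gene values, a signal per gene and library in counts divided by a size factor. Per the submitters' processing notes, Trimmomatic, Bowtie2, TopHat2, HTSeq and DESeq2 were used, with the build Rnor_6.0. Their versions and settings are not given in the sources used here. Within a library every deposited value was a whole multiple of 1 step (100% within 0.01), so whole reads were recovered, 22189094 to 42205582 per library. Columns were matched to samples by title, and 0 value columns were left unmatched.

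The 7 genes, the marker and family lists and the tests were chosen with earlier results of these data known. Testing was limited to the 13496 of 15939 genes that reached 10 in 3 or more of the 12 libraries. Values were fitted as log2(value + 1) in limma 3.58.1 (R 4.3.3) with 4 group means. Residual degrees of freedom were 8, or 7 with log2 Cdhr1 added. The Benjamini-Hochberg adjustment ran over all genes tested, at a threshold of 0.05. The difference between task groups chose the genes and was not tested. edgeR 4.0.16 and DESeq2 1.42.0 on the recovered reads were alternatives, as were other pseudocounts, filters, scalings, covariates and leaving out each library. The library quality weights did not fully converge. Departures came from a straight line through the other 11 libraries.

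Named genes were the 7 members, the reference genes, the 3 genes with the highest correlation to each member, and for each family the 2 with the largest mean where none passed. Some genes that this rule or the marker lists name are not reported here. On simulated data for age averaged over task groups, limma recovered 62% of genes changed by 1 and 93% of those changed by 2 on the log2 scale, with 7 false among 162 calls (13496 genes). For the Cdhr1 slope it recovered 70% at 0.5 and 95% at 1, with 6 false among 171 calls (13496 genes). Apart from the added changes, simulated counts were drawn independently for each gene around its mean over all libraries. They held no other shifts shared between genes, so these rates may not hold for the real libraries. Promoters came from RefSeq on GRCr8, another build than that of the deposited table.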

Additional observations from a re-analysis of the deposited data

How the results depend on the processing

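No paired analysis was possible because the labels give no replicate numbers that link libraries of different groups. Of the 7 genes, 1 passed on Cdhr1 within groups. That number was 0 with a pseudocount of 0.5, a mean of at least 50, quantile normalization, title prefix as a covariate or the bulb marker mean in place of Cdhr1. It was 2 with no filter, library quality weights, Th in place of Cdhr1 or a threshold of 0.1, 3 in DESeq2, and 0 to 1 when 1 library was left out. Over all genes 27 passed. The number was 14 with a pseudocount of 0.5 and 47 with 5, and 5 with a mean of at least 50. It was 6 after quantile normalization, 187 in DESeq2, 207 with library quality weights and 11 with title prefix. It was 42 with Th, 45 with the bulb marker mean, 71 at a threshold of 0.1, and 0 to 97 when 1 library was left out. The cause was not tested. The slope of Ms4a15 was above 0 in all 28 fits run and lost its call in 14. The 4 age tests passed 0 members in each of 25 alternatives. Every performing library was above every nonperforming one for 4 genes, and for 4 to 6 when 1 library was left out. The Scin departure in AP2 ran from 3.94 to 4.24 when 1 other library was left out. Klkb1 and the nonperforming levels of Scin, Ms4a15 and Alx4 rest on few reads, which limits what their folds and ratios can show.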
